A study of Mus musculus with 2 samples.

Results

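The genes described here are 10 markers of the cells that build blood and lymph vessels, namely Pecam1, Cdh5, Kdr, Flt1, Tek, Vwf, Plvap, Lyve1, Prox1 and Rgs5. They were taken by gene symbol, without use of their values, from the 40879 symbols of the count tables, and all 10 were found in both. The tables come from the intestine of ERAP1 wild-type (WT) mice and of mice heterozygous for ERAP1 (ERAP1+/-), with 1 library per genotype. Mice of both genotypes were on the C57BL/6 background, 8 weeks old at the start, and described as germ-free though kept in a specific pathogen-free facility. Their age when the tissue was taken is not given for these libraries, and neither the stretch of intestine nor a treatment is given in the labels. The study's abstract names colonic tissue and its methods intestine tissue. Its discussion places the comparison of the genotypes at steady state. In the ERAP1+/- mice, exons 6 and 7 of 1 Erap1 copy, a floxed (tm1a) allele from a clone of embryonic stem cells, had been removed by a cross to a Cre strain whose promoter is not named in the sources used here. The RNA of 3 mice was pooled in each library, so that differences between mice cannot be seen.

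Endothelial cells line vessels, and in the intestine they form the capillary beds of the mucosa, which take up nutrients, and the lymphatic vessels, which drain fluid, fat and immune cells. Blood endothelial cells are held together by the adhesion proteins Pecam1 and Cdh5, respond to vascular endothelial growth factor (VEGF) through Kdr and Flt1 and to angiopoietins through Tek, store von Willebrand factor (Vwf), and carry diaphragms made of Plvap where their wall is fenestrated. Lyve1 and Prox1 mark lymphatic endothelium, although Lyve1 is also made by some tissue macrophages and Prox1 by other cell types, among them enteroendocrine cells. Rgs5 is not an endothelial gene but a gene of pericytes, the contractile cells that wrap small vessels.

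The libraries held 8114826 (WT) and 8907515 (ERAP1+/-) reads counted on genes. The targeted gene, Erap1, had 229 and 2 reads, a ratio of 0.00730 (0.000878 to 0.0267), which is far below what 1 intact copy would give and goes against a heterozygous label. Reads of 3′ ends lie outside exons 6 and 7 and do not show the deletion itself. The second library is therefore called the library labelled ERAP1+/-, for short ERAP1+/- beside values, and every direction given here is that of this label. The libraries also differed in other ways than the genotype. Reads of 12 epidermis genes summed to 20778 and 361 and those of 14 skeletal muscle genes to 9215 and 207, and Xist, a transcript of the inactive X chromosome, had 1635 and 6451 reads and the Y-linked Ddx3y 319 and 29. Differences in sex, in the tissue dissected and in genotype cannot be told apart with 1 library each. Genes of the intestinal epithelium, the tissue on the labels, were abundant in both, such as Lgals4 with 22956 and 27348 reads. Levels are given as CPM, reads relative to a library size to which trimmed-mean (TMM) factors had been applied. Ratios are those of the library labelled ERAP1+/- over WT, and each interval is an exact 95% interval that covers counting error only. There are no replicates, and hence no p-values.

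All 10 genes lay within 2-fold of equality. The ratios ran from 0.740 for Tek to 1.34 for Plvap, with a median log2 ratio of 0.16, against 0.0034 over the 16142 genes with at least 10 reads, whose quartiles were -0.36 and 0.35. All 10 genes had at least 10 reads over both libraries, the range being 66 to 2295. Of all genes past that minimum, 7.22% exceeded a ratio of 2 and 8.78% lay under the reciprocal of 2, and 0 of the 10 did either. A level of 4 on the scale of log2(CPM + 1) was reached by 6 of the 10, and 0 of these 6 were past 2-fold, against 5.34% of all genes at that level. In bulk tissue, fewer cells of a type and less RNA per cell cannot be told apart.

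**Figure D1:**
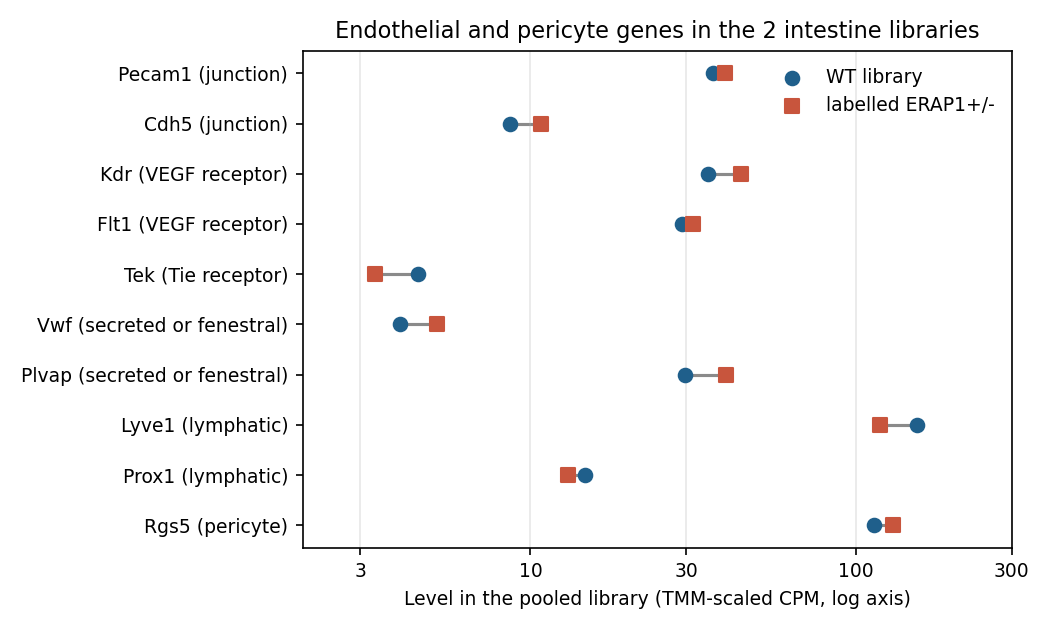
Level of each of the 10 genes in the WT library (circles) and the library labelled ERAP1+/- (squares), as TMM-scaled CPM on a log axis, with 1 point per library and no error bars because there are no replicates. Tek, Lyve1 and Prox1 lie lower in the library labelled ERAP1+/- and the other 7 genes lie higher.

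For 3 genes (Kdr, Plvap and Rgs5) the counting interval of the ratio lay above 1, and for 1 gene (Lyve1) it lay below 1. Among all genes with at least 10 reads, the interval lay above 1 for 20.6% and below 1 for 23.8%, so that the share among the 10 genes was near the background. When the libraries were scaled by the total count alone, the median of all genes moved up to 0.13 on the log2 scale and that of the 10 genes to 0.28. The order of the genes does not depend on the scaling, and Tek, Lyve1 and Prox1 stayed below 1 and the other 7 above 1 under both scalings.

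**Figure D2:**
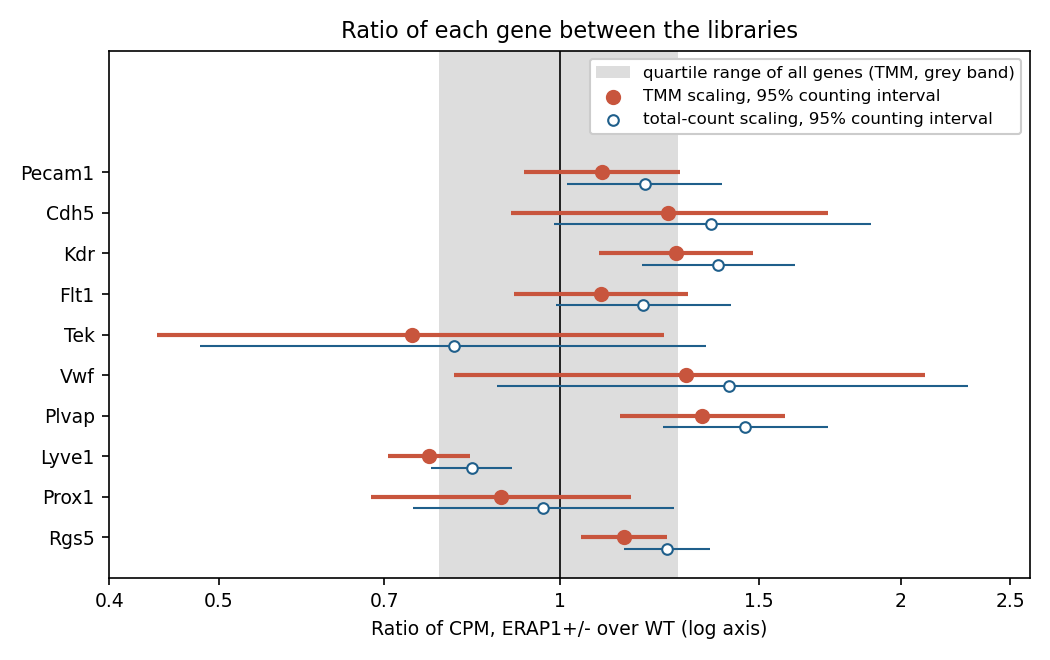
Ratio of CPM in the library labelled ERAP1+/- over the WT library for each gene on a log axis, with TMM scaling (filled) and total-count scaling (open); bars are exact 95% counting intervals and the grey band runs between the quartiles of all genes with at least 10 reads. All points lie within 2-fold, and with TMM the intervals of Kdr, Plvap, Rgs5 and Lyve1 leave out 1.

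For both junction genes the interval of the ratio includes 1. Pecam1 (CD31), an adhesion receptor at the contacts of endothelial cells and on platelets and leukocytes, lies on chromosome 11 of GRCm38 from 106654217 to 106750628 on the minus strand. It had 283 reads in WT and 369 in ERAP1+/-, or 36.4 and 39.7 CPM, a ratio of 1.09 (0.930 to 1.28). Cdh5, the VE-cadherin of adherens junctions and the more specific of the pair, lies on chromosome 8 from 104101625 to 104144511 on the plus strand. It had 67 and 100 reads, or 8.62 and 10.7 CPM, a ratio of 1.25 (0.906 to 1.73). With scaling by the total count the interval of Pecam1 no longer included 1 (1.01 to 1.39).

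Both VEGF receptors had more reads in the library labelled ERAP1+/-. Kdr (VEGFR2), the main signalling receptor for VEGF-A, lies on chromosome 5 from 75932827 to 75978458 on the minus strand. It had 272 and 412 reads, or 35.0 and 44.3 CPM, a ratio of 1.27 (1.08 to 1.48). Flt1 (VEGFR1), which binds VEGF-A tightly and as a soluble form acts as a decoy, lies on the same chromosome from 147561604 to 147726011, also on the minus strand. It had 226 and 294 reads, or 29.1 and 31.6 CPM, a ratio of 1.09 (0.911 to 1.30). The difference between the receptors can be read without any scaling, as Kdr reads per 100 Flt1 reads, which were 120 in WT and 140 in ERAP1+/-. The interval of this odds ratio, 1.16 (0.918 to 1.48), includes 1, so that a change of one receptor against the other was not detectable at this depth.

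Because these receptors answer the same ligand, the stretch upstream of each start site is shown, as RefSeq gives it on GRCm38.p6. The 2 lines run 5′ to 3′ on the strand of the gene and end before the first annotated exon base, and capitals mark the letters AGGAAG, a core recognised by ETS factors, a family with a general role in endothelial transcription.
Flt1, chr5:147726012-147726261, minus strand: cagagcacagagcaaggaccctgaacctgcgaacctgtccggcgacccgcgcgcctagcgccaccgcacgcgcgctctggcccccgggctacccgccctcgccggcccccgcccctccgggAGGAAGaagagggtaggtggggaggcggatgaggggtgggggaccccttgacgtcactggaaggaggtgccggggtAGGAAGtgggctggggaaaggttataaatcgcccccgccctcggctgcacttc
Kdr, chr5:75978459-75978705, minus strand: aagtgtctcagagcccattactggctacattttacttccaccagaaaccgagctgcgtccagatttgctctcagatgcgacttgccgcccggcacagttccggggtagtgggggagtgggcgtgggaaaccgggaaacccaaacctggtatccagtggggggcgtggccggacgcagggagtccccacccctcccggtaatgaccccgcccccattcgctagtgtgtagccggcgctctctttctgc

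The Flt1 stretch holds AGGAAG at 129 and at 53 bases before the start site and TATAAA at 31 bases, while the Kdr stretch holds none of the letters searched. Windows were on hand for 5 of the 10 genes (Flt1, Kdr, Prox1, Rgs5 and Tek), 6 in all, and 250 upstream bases were searched on both strands. Over all 32851 such windows, AGGAAG or its reverse complement was present in 29.5%, and the longer ETS letters CCGGAAGT, found before none of the 5 genes, in 2.88%. TATAAA was present in 12.4% of windows and was also found before Prox1 as TTTATA. The GATA letters AGATAA (9.99% of windows) were found before Rgs5 as TTATCT, and the SOX letters ACAAAG (16.5%) before Tek. As CTTTGT, the SOX letters were also found before an inner start site of Prox1, in a window that lies within the gene. They were not found in the window upstream of the whole gene. The KLF letters GGGTGTGG (3.20%) and the E-box CAGCTG (13.0%) were not found. These are matches of letters and say nothing of binding.

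Tek (Tie2), the receptor for angiopoietins, was the gene with the fewest reads. It lies on chromosome 4 from 94739289 to 94874976 on the plus strand and had 35 reads in WT and 31 in ERAP1+/-, or 4.50 and 3.33 CPM. Its ratio of 0.740 (0.441 to 1.24) was the lowest of the 10, and the interval includes 1 and is wide. Per 100 reads of the other 6 blood endothelial genes of the set, Tek had 3.15 reads in WT and 1.94 in ERAP1+/-, an odds ratio of 0.617 (0.366 to 1.04).

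The 2 genes of secretion and exchange were both higher in the library labelled ERAP1+/-, though for Vwf the counts were low. Vwf, the clotting glycoprotein that endothelium and megakaryocytes store, lies on chromosome 6 from 125546774 to 125686679 on the plus strand. It had 31 and 48 reads, or 3.99 and 5.16 CPM, a ratio of 1.29 (0.807 to 2.10). The megakaryocyte and platelet genes, given beside Vwf because these cells share it, had ratios on the other side. Of 6 on the list, 3 had at least 10 reads, all 3 had a ratio below 1 (Pf4 0.927, Ppbp 0.140, Itga2b 0.374), and the defining genes Gp9, Gp1ba and Treml1 had no read in either library. Plvap, the protein of fenestral diaphragms, lies on chromosome 8 from 71497765 to 71511752 on the minus strand. It had 232 and 371 reads, or 29.9 and 39.9 CPM, and its ratio of 1.34 (1.13 to 1.58) was the highest of the 10 genes. Gtpbp3 overlaps Plvap on the opposite strand but shares no exon base with it.

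Both lymphatic genes had a ratio below 1. Lyve1, a hyaluronan receptor, lies on chromosome 7 from 110850607 to 110863239 on the minus strand and had the most reads of the 10, 1197 in WT and 1098 in ERAP1+/-. Its level was 154 CPM in WT and 118 CPM in ERAP1+/-, 1.31-fold lower (1.20 to 1.42). With scaling by the total count the ratio was 0.836 (0.769 to 0.908), so that the interval stayed below 1. Prox1, the transcription factor that sets lymphatic identity, lies on chromosome 1 from 190118035 to 190170714 on the minus strand. It had 114 and 121 reads, or 14.7 and 13.0 CPM, a ratio of 0.887 (0.681 to 1.16) whose interval includes 1. Its antisense neighbor Prox1os shares 133 exon bases with it and had no read.

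Lyve1 was also lower when counted against other vessel genes of the same library, where no scaling enters. Per 100 reads of the 7 blood endothelial genes (Pecam1, Cdh5, Kdr, Flt1, Tek, Vwf and Plvap), Lyve1 had 104 reads in WT and 67.6 in ERAP1+/-, 1.55-fold lower (1.38 to 1.73). Prox1 had 9.95 and 7.45 per 100, 1.34-fold lower (1.01 to 1.76). Both contrasts were chosen after values were seen, and the 7 reference genes themselves summed to a ratio of 1.18. Against the list of other blood endothelial genes, the odds ratio of Prox1 was 0.866 (0.661 to 1.14), and that interval includes 1. The 12 other lymphatic genes on the list summed to 2970 and 3881 reads, or 259 and 239 per 100 blood endothelial reads, an odds ratio of 0.922 whose interval includes 1 (0.842 to 1.01). Against the reads of this list, Lyve1 was 1.42-fold lower (1.29 to 1.57) and Prox1 was at an odds ratio of 0.812 (0.621 to 1.06).

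Over the 11 other lymphatic genes with at least 10 reads the median log2 ratio was 0.13, with 3 of 11 intervals above 1 and 1 below, against 20.6% and 23.8% of all genes. Their reads summed to 382 and 417 CPM, a ratio of 1.09 (1.04 to 1.15) over all 12, on the other side of 1 from Lyve1 and Prox1. Ccl21a held 628 of the 2970 WT reads and 1003 of the 3881 ERAP1+/- reads, so this sum leans on Ccl21a. The genes with most reads were Nr2f2, a venous and lymphatic transcription factor that stromal cells also use (1.04, 0.958 to 1.13), and Ccl21a, the chemokine by which lymphatic vessels draw dendritic cells (628 and 1003 reads, ratio 1.33, 1.21 to 1.48), whose reads can be shared with near-identical copies. Fxyd6 had 429 and 491 reads (0.956, 0.838 to 1.09), and Pdpn, the podoplanin that fibroblasts also carry, 190 and 318 (1.40, 1.16 to 1.68). Nts, a neuropeptide made by enteroendocrine cells too, passed 2-fold on 1 and 13 reads (10.9, 1.63 to 461).

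Cells outside the lymphatics that can make Lyve1 or Prox1 were read from their own lists. The 10 macrophage genes summed to 223 and 274 CPM, with 4 of 10 intervals above 1 and none below (20.6% and 23.8% of all genes), among them Csf1r (287 and 539 reads, ratio 1.57, 1.36 to 1.82) and C1qa (1.17, 1.02 to 1.35). Mrc1, a marker of the macrophages that make Lyve1 and named here after its value was seen, had 325 and 357 reads (0.918, 0.787 to 1.07). Timd4 of the same list, also named after its value was seen, lay on the other side on 4 and 10 reads (2.09, 0.602 to 9.12). In the whole macrophage list, 6 ratios lay above 1 and 4 below. The 8 enteroendocrine genes summed to 316 and 799 CPM, with 7 of 8 intervals above 1 against the same 20.6%, among them Insl5 (ratio 5.01) and Pyy (1.68). Contrasts with these lists were chosen after values were seen. Lyve1 was 1.60-fold lower per macrophage read (1.45 to 1.78), and Prox1 2.85-fold lower per enteroendocrine read (2.18 to 3.73). The lists themselves summed to ratios of 1.23 and 2.53. Prox1 by its own reads was at 0.887 (0.681 to 1.16), so its contrast mostly reflects the higher enteroendocrine reads. The epidermis and skeletal muscle lists lay on the side of Lyve1. Each of their 12 and 14 genes was past 2-fold lower, against 8.78% of all genes (median log2 ratios -7.95 and -6.30, or -5.97 and -6.20 with genes at 0 reads set to 3 reads). Whether vessels of such tissue in the WT pool added to the reads of the 10 genes was not tested.

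The pericyte gene Rgs5, a regulator of G-protein signalling, had a ratio above 1. It lies on chromosome 1 from 169655501 to 169695813 on the plus strand and had 882 and 1203 reads, or 114 and 129 CPM, a ratio of 1.14 (1.04 to 1.24). Per 100 blood endothelial reads there were 77.0 in WT and 74.0 in ERAP1+/-, an odds ratio of 0.962 (0.856 to 1.08). Of the 8 smooth muscle genes, all 8 had an interval below 1, against 23.8% of all genes with at least 10 reads. Their median log2 ratio was -0.92, and Acta2 had 18222 and 12927 reads and Tagln 18546 and 9767.

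Summed over groups, the 7 blood endothelial genes had 1146 and 1625 reads, or 147 and 175 CPM, a ratio of 1.18 (1.10 to 1.28). The 2 lymphatic genes had 1311 and 1219 reads, or 169 and 131 CPM, a ratio of 0.777 (0.718 to 0.840). Lyve1 alone held 1197 and 1098 of these reads, so this sum is mostly Lyve1. The 12 other lymphatic genes summed to a ratio of 1.09 (1.04 to 1.15), a sum that leans on Ccl21a. The sum of all 10 was 429.7 CPM in WT and 435.0 CPM in ERAP1+/-, a ratio of 1.01 (0.967 to 1.06), or 1.10 (1.05 to 1.16) with the total count. Lyve1 alone made up 35.8% of the reads of the 10 genes in WT and 27.1% in ERAP1+/-, and without it the summed ratio was 1.15 (1.09 to 1.22).

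**Figure D3:**
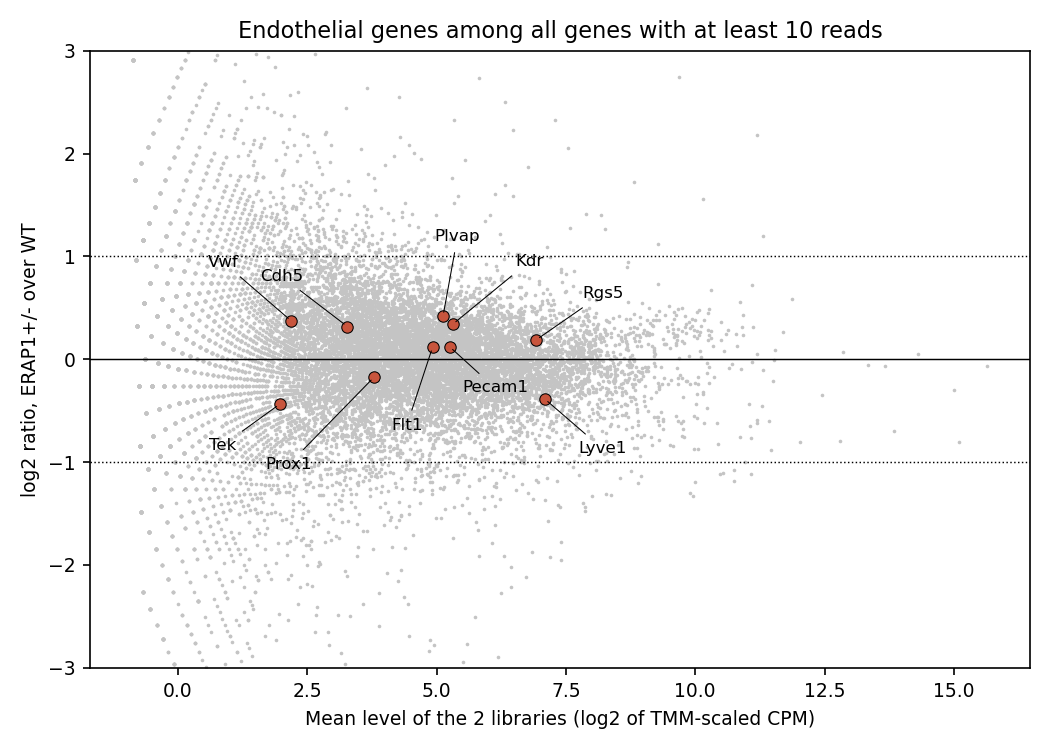
Each grey point is a gene with at least 10 reads over both libraries, at its mean level (log2 of TMM-scaled CPM) and its log2 ratio of ERAP1+/- over WT, and the 10 vessel genes are drawn in red; dotted lines mark 2-fold. The plot holds 15550 genes, another 592 lie beyond 3 on the log2 axis or have no read in 1 library, and all 10 vessel genes lie inside the cloud.

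Beyond the 10 genes, 87 other vascular genes were read from 7 lists, and 79 of them had at least 10 reads. Of these, 22 had an interval above 1 and 10 an interval below 1, 10 were more than 2-fold higher and 5 more than 2-fold lower, and the median log2 ratio was 0.12. Over all genes with at least 10 reads, intervals lay above 1 for 20.6% and below 1 for 23.8%, and 7.22% were past 2-fold higher and 8.78% past 2-fold lower.

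Of the 30 other blood endothelial genes, 28 had at least 10 reads, with 14 ratios above 1 and 14 below, and the median log2 ratio was -0.03 with TMM and 0.09 with the total count. Their sum was 304 and 311 CPM, a ratio of 1.02 (0.969 to 1.08). The gene with most reads was Cd34, a sialomucin of capillaries that stromal progenitors share, with 566 and 529 reads and a ratio of 0.781 (0.692 to 0.881). Cd93 (174 and 314 reads, ratio 1.51, 1.25 to 1.82), Calcrl, the receptor for adrenomedullin (1.37, 1.12 to 1.68), and Podxl, a luminal sialomucin (1.36, 1.11 to 1.68), were on the side of Kdr and Plvap. Sox7, a transcription factor of the SoxF group, had 34 reads in WT and 3 in ERAP1+/-, 4.38 and 0.322 CPM, a ratio of 0.0737 (0.0145 to 0.234). Its partner Sox17 had 38 and 30 reads (ratio 0.659, 0.395 to 1.09), was named after its value was seen, and its interval includes 1. Sox18 of the same group, also named after its value was seen, lay on the other side with 0 and 4 reads, under the minimum of 10. Myct1 was at 15 and 42 reads (2.34, 1.27 to 4.54), while Aplnr (3 and 8) and Cyyr1 (7 and 4) passed 2-fold with intervals that include 1.

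Set against the reads of this list, the median log2 ratio of the 10 genes was 0.12, or 0.02 when Cd34 was left out of the list. Plvap had 9.83 and 12.8 reads per 100 of the list (odds ratio 1.30, 1.09 to 1.56), Kdr 11.5 and 14.2 (1.24, 1.05 to 1.46), Rgs5 37.4 and 41.6 (1.11, 1.003 to 1.24), and Lyve1 50.7 and 38.0 (0.748, 0.677 to 0.827), and the intervals of the other 6 genes include 1. The list without Cd34 gave Kdr (0.972 to 1.36) and Rgs5 (0.929 to 1.15) an interval that includes 1 and kept those of Plvap (1.02 to 1.45) and Lyve1 (0.628 to 0.772) on their side of 1.

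**Figure D4:**
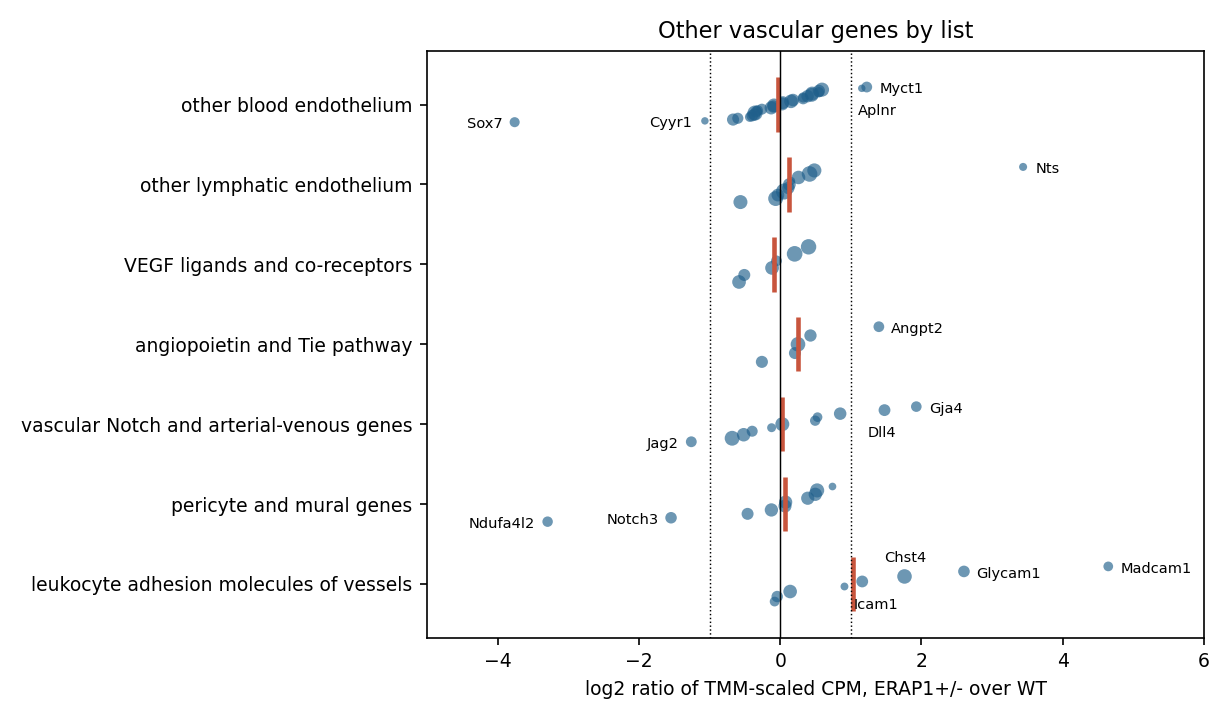
Log2 ratio of TMM-scaled CPM, ERAP1+/- over WT, for every gene with at least 10 reads in 7 lists of other vascular genes; each point is a gene, larger points have more reads, vertical bars are list medians and dotted lines mark 2-fold. The list of leukocyte adhesion molecules has the highest median (1.04), and the medians of the other 6 lie between -0.08 and 0.25.

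Ligands and co-receptors of the VEGF system split between the sides. Vegfa, the main ligand of Kdr and Flt1, had 204 and 163 reads, 26.3 and 17.5 CPM, a ratio of 0.667 (0.540 to 0.824), so that the ratios of ligand and receptors lay on opposite sides of 1. Vegfb, a ligand of Flt1, was at 0.923 (0.751 to 1.13). The co-receptors Nrp1 (712 and 982 reads, 1.15, 1.05 to 1.27) and Nrp2 (540 and 854 reads, 1.32, 1.18 to 1.47) were higher in the library labelled ERAP1+/-. Over the 6 of 7 genes with at least 10 reads the median log2 ratio was -0.08, or 0.04 with the total count.

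Among the partners of Tek, Angpt2, the antagonistic angiopoietin that vessels release when they remodel, had 13 and 41 reads, a ratio of 2.63 (1.38 to 5.36). The activating ligand Angpt1 (47 and 65 reads) had a ratio of 1.16 (0.782 to 1.72), and Tie1, the sister receptor, had 61 reads in each library, a ratio of 0.835 (0.576 to 1.21). Ptprb, the phosphatase that restrains Tek, was at 308 and 439 reads (1.19, 1.03 to 1.38) and Svep1 at 54 and 87 (1.35, 0.947 to 1.93). The median of these 5 was 0.25 on the log2 scale, and the sixth gene, Angpt4, had 3 reads and 0.

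Genes of Notch signalling and of arteries and veins diverged within the list, whose median log2 ratio was 0.03 over the 11 of 12 genes with at least 10 reads and 0.26 over those with at least 30. The sum of all 12 was 140 and 120 CPM, a ratio of 0.861 (0.792 to 0.937). Efnb2 held 509 of the 1086 WT reads and 380 of the 1120 ERAP1+/- reads, so the sum leans on this gene. Dll4, the Notch ligand of tip cells and arteries, had 24 and 80 reads, 3.09 and 8.60 CPM, a ratio of 2.78 (1.75 to 4.60). Gja4, a gap junction protein of arterial endothelium, had 9 and 41 reads (3.81, 1.82 to 8.90), and Ephb4, the venous receptor, 51 and 110 (1.80, 1.28 to 2.56). On the other side were Efnb2, the ligand of Ephb4 (509 and 380 reads, 0.624, 0.545 to 0.714), Jag1 (0.698, 0.558 to 0.874) and Jag2 (38 and 19 reads, 0.418, 0.227 to 0.743), which epithelial cells can make as well. Notch1 was near 1 (1.02, 0.846 to 1.23).

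The 12 other pericyte and mural genes summed to 119 and 127 CPM, a ratio of 1.07 (0.978 to 1.16). Abcc9, the regulatory part of the potassium channel of pericytes, had 186 and 320 reads (1.44, 1.20 to 1.73), Rgs4 103 and 174 (1.41, 1.10 to 1.82), Kcnj8, the pore of that channel, 133 and 146 (0.917, 0.720 to 1.17), and Mcam 122 and 154 (1.05, 0.826 to 1.35). In the opposite direction, Ndufa4l2 had 41 and 5 reads, a ratio of 0.102 (0.0314 to 0.258), and Notch3, a receptor of mural cells, 61 and 25 (0.342, 0.206 to 0.554). Over the 10 genes with at least 10 reads the median log2 ratio was 0.07.

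The molecules that draw leukocytes out of the blood had the highest median of the 7 lists. Of 8 such genes, all with at least 10 reads, 4 were past 2-fold with the library labelled ERAP1+/- higher and none lower, with a median log2 ratio of 1.04, and their sum was 49.3 and 109 CPM. Over all genes with at least 10 reads, 7.22% were past 2-fold on the higher side and 8.78% on the lower. Of the 4 genes, 3 are known from the high endothelial venules of lymphoid tissue, but bulk reads do not show which cells made them. Chst4, a sulfotransferase that makes selectin ligands there, had 140 and 568 reads, or 18.0 and 61.1 CPM, a ratio of 3.39 (2.81 to 4.11). Its reads were most of the 1016 that the list held in the library labelled ERAP1+/-, so the summed difference leans on Chst4. Glycam1, a mucin that carries such ligands, had 11 and 80 reads (6.07, 3.22 to 12.7), and Madcam1, the gut addressin, 1 and 30, a ratio of 25.1 whose interval is wide because of the single WT read (4.17 to 1022). Icam1, which is found on many cell types, was the fourth, with 28 and 75 reads (2.24, 1.43 to 3.59). Vcam1 was at 147 and 194 reads (1.10, 0.885 to 1.38), and the intervals of Sele, Selp and Ackr1 include 1.

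B cell genes, chosen after these values were seen because high endothelial venules belong to lymphoid tissue, were on the same side. Over 8 such genes the reads summed to 108 and 262, or 13.9 and 28.2 CPM, a ratio of 2.03 (1.61 to 2.56). Of the 6 genes with at least 10 reads, 3 (Cd79b, Ms4a1 and Pax5) had an interval above 1 and none below. Among all genes past that minimum, 20.6% had an interval above 1 and 23.8% below. Cd79a (1 and 5 reads) and Cxcr5 (3 and 2) were near the 3 reads that a count of 0 allows. Their part in the difference of the venule genes was not tested. None of the 10 markers is restricted to such venules, and their own differences stayed under 2-fold.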

How the data were processed

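Counts of polyadenylated 3′ ends (QuantSeq FWD, single-end reads) were analysed for 1 library of intestine per genotype. The files deposited by the authors hold counts, as integers for each gene symbol, and no normalization had been applied. The methods describe both STAR with HTSeq-count and Bowtie2 with RSEM, the submitters' processing notes name Bowtie2, RSEM and GRCm38, and which made the counts, as well as versions, is not given in the sources used here. Since reads come from 3′ ends, counts were not divided by length, and shares of reads or the genes with most reads are described by reads, not as levels compared between genes.

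Scaling factors by TMM (edgeR 4.0.16 under R 4.3.3) were 0.958 in the WT library and 1.04 in the other, and DESeq2 1.42.0 gave alternative size factors. The intervals of ratios are exact and binomial, at 95% and conditional on both counts' sum (scipy 1.17.1), and contrasts within a library conditional odds ratios; they cover counting error only, reads without molecular identifiers are not independent molecules, and quasi-likelihood tests cannot be fitted with 1 library per genotype. Contrasts within a library, other than those against the list of other blood endothelial genes, were chosen after values were seen. Ratios and intervals were tried on simulated counts that held counting error only. Such counts check the calculation and cannot show how the intervals fare with differences between mice. A gene needed 10 reads over both libraries.

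The 10 genes and the 18 lists (7 vascular, 11 of other cells) were chosen with earlier results of these data known. Named were the 10 genes, in each vascular list the 4 genes with most reads and those past 2-fold, and in each list of other cells the 2 with most reads, apart from genes of which it is said that they were named later, a list's defining or lowest genes and library checks. A gene that the rule names among other cells is not reported here. Alternatives were the scaling, filters, pseudocount, fold threshold and members counted. Positions are those of GENCODE M21 on GRCm38, in which all 10 genes were found, and upstream sequences those of RefSeq on GRCm38.p6.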

Additional observations from a re-analysis of the deposited data

How the results depend on the processing

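No paired analysis was possible because the samples hold only 1 library per genotype, and for the same reason no library could be left out. The log2 ratio of the summed reads of the 10 genes was 0.02 and moved to 0.14 with scaling by the total count and to 0.20 without Lyve1. Of the other summaries, the median ratio of the 10 genes was judged against the median limits of their single intervals, a wide yardstick. Counts of the 10 genes were judged against 1.5 times. By these measures neither moved under DESeq2 size factors or TMM without mitochondrial and ribosomal RNA features or without skin and striated muscle genes. The counts also held with a pseudocount of 0.1, minima of 30 reads or none, levels of 3 or none, and thresholds of 1.5-fold and 4-fold. The number of genes more than 2-fold apart was 0 of 10 under every one of these. Among single genes, Lyve1 moved beyond its interval with the total count, to -0.26 on the log2 scale from -0.38, and no gene of the 10 changed direction. Under the same scaling the medians of smooth muscle (-0.79), fibroblasts (-0.02) and intestinal epithelium (-0.19) moved as well. Depth limits Tek and Vwf, with 66 and 79 reads in all, for which differences within their wide intervals were not detectable.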

Other observations

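Lists of other cells that lie beside vessels differed in direction between the libraries. The 8 adipocyte genes summed to 106 and 195 CPM, with 3 genes past 2-fold higher in the library labelled ERAP1+/- and 2 past 2-fold lower. Those 2 were Retn (61 and 30 reads) and Lep (7 and 4), both named after their values were seen. Among all genes with at least 10 reads, 7.22% were past 2-fold higher and 8.78% lower. The adipocyte genes with most reads were Fabp4, a fatty acid carrier that capillary endothelium makes too (435 and 887 reads, ratio 1.70, 1.52 to 1.91), and Cfd (163 and 558 reads, 2.86, 2.40 to 3.43). The 8 fibroblast genes had a median log2 ratio of -0.14, with Dcn at 0.682 (0.662 to 0.703) and Col1a2 at 0.902 (0.873 to 0.933). The 5 genes of enteric glia had a median of 0.00, and S100b (86 and 103 reads) had an interval that includes 1.

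Residual blood was present in both libraries. The 5 red blood cell genes summed to 199 and 230 CPM, a ratio of 1.15 (1.08 to 1.23), with Hba-a1 at 1.19 (1.06 to 1.33) and Hbb-bs at 0.916 (0.817 to 1.03), and reads of the near-identical globin copies can be shared. The summed ratio of the 7 blood endothelial genes was 1.18, and that of the 30 other blood endothelial genes was 1.02 (0.969 to 1.08). A link between these values was not tested. On the platelet list, Ppbp had 394 and 66 reads, a ratio of 0.140 (0.106 to 0.182), while Pf4, with 374 and 415 reads, had an interval that includes 1 (0.804 to 1.07). Gp9, Gp1ba and Treml1 of that list had no read in either library. Whether the reads of Ppbp and Pf4 came from platelets was not tested. The 8 epithelial genes had a median log2 ratio of -0.31, or -0.19 with the total count, with Cdh1 at 0.741 (0.725 to 0.756) and Lgals4 at 0.995 (0.978 to 1.01). Among epidermis and skeletal muscle genes those with most reads were Flg (7952 and 4 reads), Krt10 (3922 and 72), Ttn (2154 and 26) and Acta1 (1490 and 42).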
